A study of Mus musculus with 6 samples.

Results

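Ion channels and neurotransmitter receptors were described here as the genes whose symbols fall into 14 families: voltage-gated sodium channels, voltage-gated calcium channels with their auxiliary subunits, potassium channels, ionotropic and metabotropic glutamate receptors, GABA and glycine receptors, TRP channels of the C, M and V groups, CLC chloride channels and exchangers, purinergic receptors, nicotinic receptors and the Piezo channels. The rule for members used symbols alone and no measured value, although it was chosen with earlier results of these data known. It matched 67 of the 16472 genes of the authors' deposited table. Of these, 63 encode a channel, receptor or auxiliary subunit and 4 do not. The 4 are the long noncoding RNA Kcnq1ot1, the transcript Trpc5os from the strand opposite Trpc5, the TRPC4-associated protein Trpc4ap and the potassium channel regulator Kcnrg. In RefSeq's list of mouse genes (GRCm38.p6), 248 protein-coding genes bear such symbols, and 66 of them had a line in the table, 2 under older symbols (Scn2a1 and Clcn4-2). The other 182, among them all 4 AMPA receptor subunits and all 8 metabotropic glutamate receptors, were not analysed here, so nothing is said of their level.

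All libraries came from HT22, an immortalised line of mouse hippocampal neurons. Cultures were exposed to AA147, a small molecule known to activate ATF6 and NRF2 signalling, or to its vehicle DMSO, and were collected after 16 h. The labels write the dose as 10 mM, a unit that was not checked. There were 3 libraries per group and 6 in all, and the labels do not say whether they came from separate experiments, so the spread behind each p-value may be technical. The question was which neuronal channels these cells express and which of them differ between the groups.

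Channels of these families set the electrical behaviour of neurons. Voltage-gated sodium channels carry the upstroke of the action potential, potassium channels end it and hold the resting potential, and voltage-gated calcium channels couple firing to transmitter release and gene regulation. Ligand-gated receptors for glutamate, GABA, glycine, acetylcholine and ATP turn released transmitter into current. Many CLC proteins, some TRP channels and Piezo channels work outside neurons too, in endosomes and lysosomes or as sensors of mechanical force. HT22 cells are best known as a model of death caused by excess glutamate through loss of cystine uptake, not through glutamate receptors.

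The authors' deposited table holds a single line per gene, with a mean normalized count over the 6 libraries, a log2 fold change between the groups and its standard error (SE). No value for a single library was analysed here, so values by sample and the overlap between groups cannot be shown. Fold changes are read as AA147 over vehicle, although the numerator is not named, and every direction below rests on that reading. An adjusted p under 0.05 over all genes was taken as a call. For comparing genes, the mean was divided by the length of the canonical transcript, giving normalized counts per kb. The means of all genes summed to 30768012 per the authors' deposited table, of which the 67 members held 0.178%.

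The marker genes of the labelled cell type, hippocampal neurons, gave a mixed picture. Of 18 neuronal markers, 6 had a line in the authors' deposited table. Tubb3, a neuronal tubulin, had 374 normalized counts per kb, the scaffold gene Dlg4 had 302 and the synaptic vesicle gene Syn1 had 165. Tubb3 was called positive at 0.43 (adjusted p 5.67e-05) per the authors' deposited table, while Dlg4 and Syn1 were not called. In contrast, Stmn2 lay at 2.92, Camk2a at 2.04 and the vesicular glutamate transporter Slc17a7 at 1.29 per kb, against a median of 189 over the 13504 genes with a known length. The other 12 markers, including Rbfox3, Snap25 and Syt1, were not analysed here. Fibroblast genes were abundant: 7 of 8 had a line, 6 with a mean of at least 1000 per the authors' deposited table, and Col1a2 reached 47398 per kb. Of these 7, 4 were called negative per the authors' deposited table, with log2 fold changes of -1.52 for Col1a1, -1.11 for Col3a1 and -0.97 each for Col1a2 and Pdgfrb. Their part in the results below was not tested. Of 5 astrocyte markers 3 had a line, and Slc1a3 was called at -1.30 with a mean of 927 per the authors' deposited table. Its level was 221 normalized counts per kb. Aldh1l1 and Slc1a2 lay at 6.53 and 0.13 normalized counts per kb, the oligodendrocyte marker Mbp at 0.93, and the microglial marker Csf1r at 7.94. Csf1r was called at 0.95 (adjusted p 0.0278) per the authors' deposited table.

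The channel and receptor genes were mostly weakly expressed. In bulk RNA such as this, fewer cells of a type and less RNA per cell cannot be told apart. Of the 67 members, 28 had a mean of at least 100 normalized counts per the authors' deposited table, or 41.8%, against 64.6% of all genes. A mean from 10 to 100 was listed for 18 and a mean under 10 for 21. Among the 63 subunit genes, the median was 10.2 normalized counts per kb, and 10 lay above the median of all genes with a known length. The summed means of the 63, not divided by transcript length, came largely from a few genes. Per the authors' deposited table Piezo1 alone held 38.1% of that sum, and the 5 most abundant held 71.6%. The Piezo1 transcript is long, 8223 bases against 2480 for Cacnb3. Per kb it lay below Cacnb3, at 2013 against 2391.

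**Figure D1:**
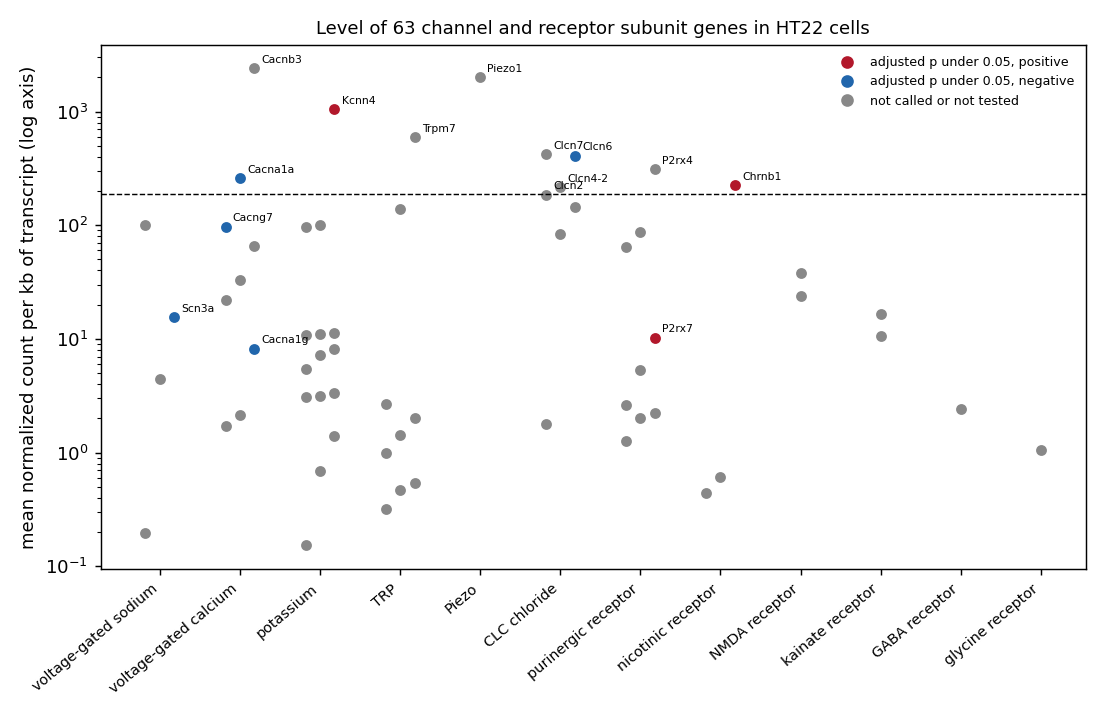
Mean normalized count per kb of transcript (log axis) of the 63 subunit genes, 1 point per gene, by family; the dashed line is the median of all genes with a known length, 189 per kb. Cacnb3, Piezo1 and Kcnn4 stand highest, above 1000, while the glutamate, GABA and glycine receptor genes all lie under 40.

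Cacnb3, Piezo1, Kcnn4 and Trpm7 led the order of levels per kb. Cacnb3, a cytoplasmic beta subunit that brings calcium channel pores to the membrane, had 2391 normalized counts per kb, more than 94.5% of the genes with a known length. The mechanically gated cation channel gene Piezo1 had 2013 per kb, the calcium-activated potassium channel gene Kcnn4 had 1047, and Trpm7, a magnesium-permeable channel fused to a kinase, had 598. Next came the lysosomal and endosomal chloride-proton exchangers Clcn7 at 422 and Clcn6 at 408, the ATP-gated channel gene P2rx4 at 312, the P/Q-type calcium channel pore Cacna1a at 258 and the muscle-type nicotinic subunit Chrnb1 at 224 per kb. Clcn4-2 at 215 was the last above the median of all genes with a known length. The authors' deposited table has no spread of a level, so which neighbours in this order differ cannot be said.

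Most of the classical neuronal subunits could not be read, and the rest varied in level. Of 40 such genes on a list of pore-forming and receptor subunits, 12 had a line in the authors' deposited table. A mean of at least 100 was listed for 6 of the 12. Among the 6 were Cacna1a, Gabbr1, Cacna1c, Grik2 and Scn3a. The median of the means was 123 for the 12, beside 53.2 for the 67 members and 430 for all genes, per the authors' deposited table. The metabotropic GABA receptor subunit Gabbr1, which the symbol rule does not include, had 181 normalized counts per kb, and its fold change was 0.00 with an SE of 0.083 (adjusted p 0.998) per the authors' deposited table. At the low end, the large-conductance potassium channel Kcnma1 lay at 0.15 per kb and the neuronal nicotinic subunit Chrnb2 at 0.62. The glycine receptor subunit Glrb lay at 1.06. The other 28 genes of the list were not analysed here.

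Of the 67 members, 47 had an adjusted p per the authors' deposited table, and 8 of them, 17%, were called. Over all 13597 genes with an adjusted p, 20.2% were called, so the share among the members was near the background. The 3 positive calls, beside 9.05% of all genes, were P2rx7, Kcnn4 and Chrnb1, and the 5 negative calls, beside 11.1%, were Cacna1g, Cacng7, Cacna1a, Scn3a and Clcn6. With a mean of at least 100, 6 of 28 members were called, 21.4%, against 23.8% of all such genes per the authors' deposited table. The median log2 fold change of the 47 was -0.09 and that of all genes with an adjusted p was 0.01. Negative fold changes were listed for 31 of the 47 members and for 6571 of the 13597 genes per the authors' deposited table.

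**Figure D2:**
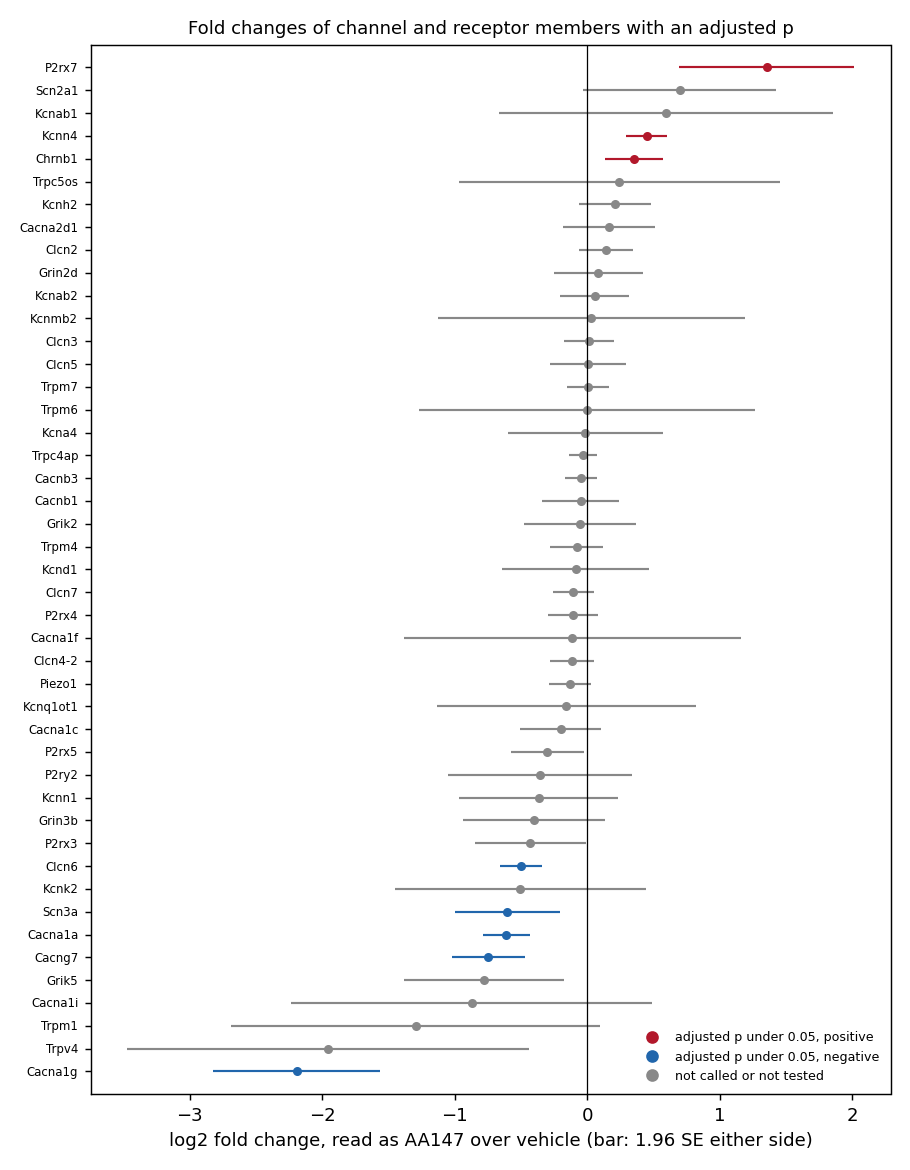
Log2 fold change, read as AA147 over vehicle, of all but 2 of the 47 members with an adjusted p, in order of the fold change; bars span the 95% interval. The 8 called members are coloured, and Cacna1g at -2.19 and P2rx7 at 1.35 mark the ends of the called range.

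Of 9 voltage-gated calcium channel genes with an adjusted p, 3 were called, all negative, beside 11.1% of all genes called negative. Whether the family differs from other genes was not tested. The T-type pore Cacna1g, which opens at low voltage and shapes burst firing, had the largest fold change of any called member, at -2.19 (SE 0.32, adjusted p 4.28e-10) per the authors' deposited table. Its mean of 68.2 normalized counts implies group averages of 112 with vehicle and 24.5 with AA147, where the fitted fold change is applied as it stands and both groups weigh equally. The transcript was thus weakly expressed in either group, with 8.18 normalized counts per kb. Cacna1i, another T-type pore, had a mean of 16.7, with a log2 fold change of -0.87 (SE 0.70), and missed the threshold at an adjusted p of 0.431, per the authors' deposited table.

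Cacna1a, which encodes the P/Q-type pore that drives transmitter release at many synapses, was the most abundant calcium channel pore among the members. Its mean was 2337 and its log2 fold change -0.61 (SE 0.091, adjusted p 9.50e-10) per the authors' deposited table. The implied averages were 2824 normalized counts with vehicle and 1850.5 with AA147, a 1.53-fold difference. Cacng7, a member of the family of AMPA receptor and calcium channel auxiliary proteins, had a mean of 306, with a log2 fold change of -0.75 (SE 0.14, adjusted p 2.31e-06) per the authors' deposited table, with implied averages of 384 and 229.

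The other calcium channel subunits did not pass the test, and most were measured well enough to bound the change. The 95% interval, from the SE under a normal approximation, ran for Cacnb3 from -0.17 to 0.08, for Cacnb1, another beta subunit, from -0.34 to 0.24 and for the L-type pore Cacna1c from -0.51 to 0.11. Cacna2d1, whose product lies outside the membrane and promotes trafficking, had an interval from -0.18 to 0.51. The retinal L-type pore Cacna1f, with a mean of 13.1 per the authors' deposited table, had one from -1.38 to 1.16.

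Of 14 sodium channel genes in RefSeq, 4 had a line in the authors' deposited table, and their levels were low. The other 10 were not analysed here. Scn3a, the Nav1.3 pore known from developing neurons, had a mean of 151, with a log2 fold change of -0.60 (SE 0.20, adjusted p 0.0182) per the authors' deposited table, which implies averages of 183 with vehicle and 120 with AA147. Scn2a1, which encodes the pore Nav1.2, had a mean of 38.8, with a log2 fold change of the other sign, 0.70 (SE 0.37), and missed the threshold at an adjusted p of 0.187, per the authors' deposited table. The level was 15.6 normalized counts per kb for Scn3a and 4.44 for Scn2a1. Scn9a, the Nav1.7 pore of sensory neurons, had a mean of 1.93 per the authors' deposited table and no adjusted p.

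Among the 17 potassium channel members, 11 of them with an adjusted p, Kcnn4 was the only call. It encodes an intermediate-conductance channel opened by calcium through calmodulin, best known in blood cells and fibroblasts and less in central neurons. The mean was 2041 and the log2 fold change 0.45 (SE 0.079, adjusted p 3.10e-07) per the authors' deposited table, with implied averages of 1725 with vehicle and 2357 with AA147. The related small-conductance gene Kcnn1 had a log2 fold change of -0.37 (SE 0.31; adjusted p 0.460) per the authors' deposited table, at 10.9 normalized counts per kb.

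The other potassium channel subunits had far lower levels per kb than Kcnn4. The hERG channel gene Kcnh2 lay at 100 normalized counts per kb and the beta subunit Kcnab2 at 95.6, with fold changes of 0.21 (adjusted p 0.321) and 0.06 (adjusted p 0.829) per the authors' deposited table. The A-type genes Kcnd1 and Kcna4, the leak channel Kcnk2 and the auxiliary genes Kcnmb2 and Kcnab1 had means from 10.8 to 59.7 and fold changes from -0.50 to 0.59, and none was called per the authors' deposited table. The noncoding RNA Kcnq1ot1 had a mean of 409 but its SE of 0.50 was 3.95 times that typical at such a mean, so its fold change of -0.16 was poorly determined per the authors' deposited table.

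Chloride transport was represented by 7 CLC genes, 6 of them with a mean of at least 100. Clcn6, a late endosomal exchanger, was called at -0.50 (SE 0.082, adjusted p 3.65e-08) per the authors' deposited table. Its mean of 1281 implies 1500.1 normalized counts with vehicle and 1061 with AA147. The lysosomal exchanger Clcn7 lay at -0.10, the endosomal exchangers Clcn4-2, Clcn3 and Clcn5 at -0.11, 0.02 and 0.01 and the plasma membrane channel Clcn2 at 0.14, with adjusted p-values from 0.377 to 0.987 per the authors' deposited table. Each of these 5 intervals lay within 1.5-fold in either direction. Whether Clcn6 differs from its relatives was not tested.

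Purinergic receptors respond to extracellular nucleotides. P2rx7, an ATP-gated channel known for opening only at high ATP and for its role in inflammation, had the largest positive fold change among called members, 1.35 (SE 0.34, adjusted p 0.000716) per the authors' deposited table. Its mean of 50.8 normalized counts implies 28.6 with vehicle and 73.1 with AA147, a low level in both groups. The more abundant P2rx4 lay at -0.11 (SE 0.098, adjusted p 0.508) per the authors' deposited table. P2rx5 at -0.30 and the sensory neuron channel P2rx3 at -0.43 had unadjusted p-values of 0.0314 and 0.0439 and adjusted values of 0.117 and 0.149, and were not called per the authors' deposited table. The G protein-coupled P2ry2 had a mean of 45.2, with a log2 fold change of -0.36 (SE 0.35, adjusted p 0.551) per the authors' deposited table.

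Chrnb1 encodes the beta subunit of the muscle-type acetylcholine receptor. It was called at 0.35 (SE 0.11, adjusted p 0.0116), with a mean of 484 per the authors' deposited table and implied averages of 425 with vehicle and 543 with AA147. The neuronal subunits Chrnb2 and Chrnb4 had means of 2.17 and 1.67 per the authors' deposited table, too low for an adjusted p.

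**Figure D3:**
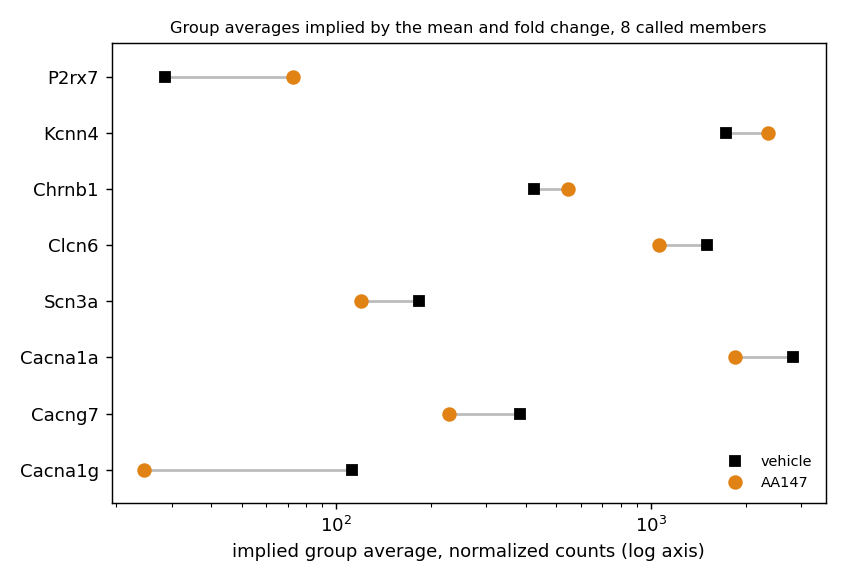
Group averages in normalized counts (log axis) that follow from the mean and the fold change of the 8 called members, squares for vehicle and circles for AA147. No spread is shown because no value per library was analysed; the widest gaps are those of Cacna1g (112 to 24.5) and P2rx7 (28.6 to 73.1), both at low levels.

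Glutamate, GABA and glycine receptor genes had no call. The NMDA receptor subunit Grin2d, typical of early development, had a mean of 206, with a log2 fold change of 0.08 (SE 0.17, adjusted p 0.797) per the authors' deposited table. Grin3b, a glycine-binding NMDA subunit, lay at -0.40 with an SE of 0.27 (adjusted p 0.336) per the authors' deposited table. The kainate receptor subunit Grik2 had a mean of 155, with a log2 fold change of -0.05 (SE 0.22, adjusted p 0.913) per the authors' deposited table. Grik5, a subunit that needs partners such as Grik2 to form a channel, came near the threshold at -0.78 with an SE of 0.31 (unadjusted p 0.0113, adjusted p 0.0545), the 1 gene of these families with an unadjusted p under 0.05 per the authors' deposited table. Gabrr2 and Glrb had means of 4.69 and 5.30 and no adjusted p per the authors' deposited table.

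The mechanosensitive and TRP channels were abundant in part and none was called. Piezo1 had a mean of 16553, with a log2 fold change of -0.13 (SE 0.082, adjusted p 0.291) per the authors' deposited table, and its interval ran from -0.29 to 0.03. The intervals of Trpm7, from -0.16 to 0.16, and of the calcium-activated Trpm4, from -0.28 to 0.12, also lay within 1.5-fold, as did that of Trpc4ap, from -0.14 to 0.08. Trpv4, a channel gated by heat and osmotic swelling, lay at -1.95 with an SE of 0.77 at a mean of 8.77 and just missed the threshold (unadjusted p 0.0115, adjusted p 0.0553) per the authors' deposited table. Trpm6, Trpm1 and Trpc5os had means from 11.3 to 13.6 per the authors' deposited table and intervals that reached past 2-fold.

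Another 20 members had no adjusted p, and all had a mean of at most 8.35 per the authors' deposited table. Besides Scn9a, Chrnb2, Chrnb4, Gabrr2, Glrb and Kcnma1, these were Clcn1, Kcnab3, Kcnh6, Kcnj14, Kcnrg, Kcnu1, P2rx1, P2rx2, P2rx6, P2ry6, Trpc5, Trpm3, Trpv2 and Trpv3. The smallest unadjusted p among the 20 was 0.0996, for Trpv3, per the authors' deposited table. No difference was detectable for them at this depth.

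Precision set what could be seen. The median SE was 0.12 for members with a mean of at least 100, 0.36 from 10 to 100 and 1.11 under 10 per the authors' deposited table. Of the 39 members tested and not called, 20 had an interval within 1.5-fold in either direction, and all 20 had a mean of at least 100. The 2 other uncalled members with such a mean were P2rx3 and Kcnq1ot1. None of the 17 uncalled members with a lower mean was bounded within 1.5-fold, and 5 were bounded within 2-fold. Cacna1g and P2rx7 were the only calls among the 19 tested members with a mean under 100, where 7.12% of all such genes were called.

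**Figure D4:**
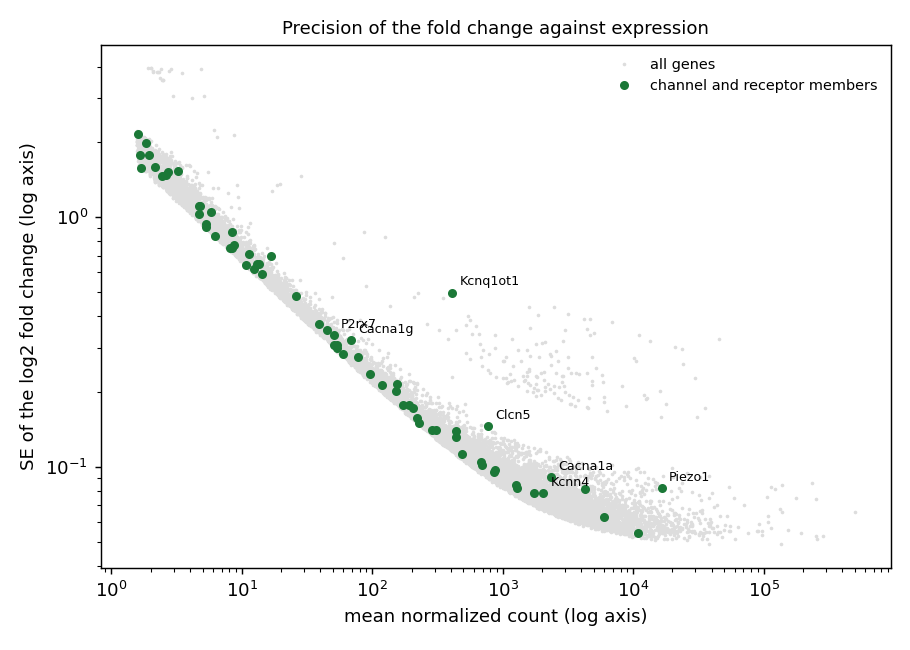
SE of the log2 fold change against the mean normalized count (both axes log) for all genes in grey and the 67 members in green. Most members follow the band of all genes, while Kcnq1ot1 lies far above it, with an SE of 0.50 at a mean of 409.

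The libraries did not mark strand, per the labels, so reads from exons that 2 genes share on opposite strands cannot be told apart. In the GENCODE M39 annotation of GRCm39, 34 members had exonic bases in common with another gene, and for 5 the shared part was at least 25% of the canonical transcript. Grin3b shared 31.9% of its transcript with Tmem259, whose mean was 8216 against 77.9 for Grin3b per the authors' deposited table, so the level of Grin3b is uncertain. Piezo1 shared 27% with Ctu2, which had a mean of 1621 and a called fold change of -0.21 per the authors' deposited table. The others were P2rx6 with Slc7a4 at 56%, Kcnrg with Dleu2 at 25.9% and P2rx5 with a predicted gene at 25.7%. None of these 5 was called, and the shared part of any called member with any single gene was at most 7.3%.

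Promoter sequences are shown for the 3 positive calls because AA147 is known to activate NRF2, whose binding site is the antioxidant response element. RefSeq windows of 300 bases around each gene start, assembly GRCm38.p6, were searched on both strands for TGACNNNGC, the core of this element, and for TGACGTG, a site bound by ATF6. The core was present in 12.4% of all 32851 windows and the ATF6 site in 2.01%. Chrnb1 held the core from 10 to 2 bases before the start, and P2rx7 from 88 to 80 bases before one of its 2 starts, both on the opposite strand and shown in capitals. Kcnn4, shown for comparison, and the negative members Cacng7 and Clcn6 had no match to it, and none of the 6 windows of these 5 genes held the ATF6 site. Over the 53 members with an entry, 16 genes, 30.2%, had the core in at least 1 window, beside 14% of the 27025 RefSeq genes with an entry. Counted by window, the core was in 22.4% of the 76 windows of members, beside 12.4% of all windows. Neither difference was tested. A match is a description of these letters and does not show binding. Cacna1a, Cacna1g and Scn3a were not searched.
P2rx7, chr5:122643677-122643976, plus strand: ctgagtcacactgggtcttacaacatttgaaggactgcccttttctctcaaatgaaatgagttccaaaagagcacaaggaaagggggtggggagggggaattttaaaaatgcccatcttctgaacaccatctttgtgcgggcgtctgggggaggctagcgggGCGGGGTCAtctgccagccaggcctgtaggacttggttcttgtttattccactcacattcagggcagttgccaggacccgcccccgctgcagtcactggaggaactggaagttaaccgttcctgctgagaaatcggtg
Chrnb1, chr11:69795888-69796187, minus strand: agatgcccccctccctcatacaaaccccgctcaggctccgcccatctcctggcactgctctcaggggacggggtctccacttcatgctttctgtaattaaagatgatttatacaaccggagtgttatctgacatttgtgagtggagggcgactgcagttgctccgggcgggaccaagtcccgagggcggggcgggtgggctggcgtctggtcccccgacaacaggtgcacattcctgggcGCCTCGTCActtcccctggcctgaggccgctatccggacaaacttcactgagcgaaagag
Kcnn4, chr7:24370013-24370312, plus strand: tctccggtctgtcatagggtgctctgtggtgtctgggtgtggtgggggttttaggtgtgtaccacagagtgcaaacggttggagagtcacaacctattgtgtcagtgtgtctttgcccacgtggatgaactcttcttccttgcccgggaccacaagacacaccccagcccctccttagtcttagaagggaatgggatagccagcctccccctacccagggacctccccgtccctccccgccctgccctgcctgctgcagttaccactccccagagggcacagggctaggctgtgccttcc

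Genes that work beside these channels were read from 4 further lists. Of 23 ion pumps and exchangers, 17 had a line and 15 an adjusted p per the authors' deposited table. Only 1 of the 15 was called, a positive one, which is 6.67%, beside 20.2% of all genes, and the difference was not tested. Among 40 other channels, 31 had a line in the authors' deposited table, 30 of them with an adjusted p, and 5 were called positive and 4 negative. That is 30% of those tested, beside 20.2% of all genes, and the difference was not tested. The proton-gated Asic1 at -0.68 (SE 0.090, adjusted p 1.85e-12) and the polycystin channel Pkd2 at -0.44 (SE 0.067, adjusted p 1.72e-09) were the strongest negative calls per the authors' deposited table. Of 2 related mechanosensitive channels, Tmem63b was called positive at 0.33 (adjusted p 1.65e-06) and Tmem63a negative at -0.31 (adjusted p 0.000237) per the authors' deposited table. Lrrc8c, a subunit of the volume-regulated anion channel, was called at 0.24 (adjusted p 0.00357) per the authors' deposited table. Calcium release channels of the endoplasmic reticulum ranged widely, with 769 normalized counts per kb for Itpr3, 383 for Ryr1, 197 for Itpr1, 43.9 for Itpr2 and 0.81 for Ryr3, and none of these was called.

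Of 25 synaptic scaffolds and receptor partners, the authors' deposited table lists 17, 14 with an adjusted p, of which 2 were called positive and 3 negative. The share called was 35.7%, beside 20.2% of all genes tested, again with no test of the difference. The positive ones were Homer3 at 0.41 (adjusted p 4.72e-06), which links metabotropic glutamate receptors to calcium stores, and Pick1 at 0.34 (adjusted p 0.00914) per the authors' deposited table. Cnih2, an AMPA receptor auxiliary subunit, was negative at -0.46 (adjusted p 0.00340) per the authors' deposited table. Gphn, which anchors GABA and glycine receptors, was negative too, at -0.26 (adjusted p 0.0134) per the authors' deposited table. Of 36 receptors for acetylcholine, monoamines, adenosine and histamine, 7 had a line and 4 an adjusted p per the authors' deposited table, and none was called. The adenosine receptor Adora2b was the most abundant of these at 261 normalized counts per kb, with a fold change of -0.26 (SE 0.12, unadjusted p 0.0346, adjusted p 0.125) per the authors' deposited table.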

How the data were processed

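The analysis used 1 table of the authors' own comparison of 3 AA147 and 3 vehicle libraries of HT22 cells, with no value per library. Per the submitters' processing notes, DESeq2 and the genome build mm9 were used. The aligner, read counter and annotation are not given in the sources used here. Per the file headers, the mean normalized count is a signal averaged over the libraries. The log2 fold change and its SE, a score (their ratio), and the raw and adjusted p-value are as the authors deposited them, from a model fitted across all genes. The adjusted values equalled a Benjamini-Hochberg adjustment over 13597 genes to within 7.58e-07, and the other 2875 genes have none. Depth per library is unknown, so precision is given by the SE.

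Members were found by symbol. They, the gene lists and the tests were chosen with earlier results of these data known. The genes named were every called member, the 3 most abundant of each family, a list of neuronal subunits, the 5 uncalled members with a mean of at least 100 and the largest fold change, and at most 5 called genes per further list. Remaining members and list genes were named to account for the families, some after their values were seen. Some genes of these lists are not reported here. Transcript lengths and exon overlaps came from GENCODE M39 (GRCm39), names and promoters from RefSeq (GRCm38.p6), and no coordinates of the files were used. Lengths were known for all 67 members and 82% of genes. The SE typical at a given mean is the median over 200 neighbours on each side. Implied group averages assume equal group weights. The adjustment was tested on fold changes simulated with the authors' SEs, which cannot show whether those SEs are right. Python 3.11.15, pandas 2.3.3 and SciPy 1.17.1 were used.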

Additional observations from a re-analysis of the deposited data

How the results depend on the processing

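No paired analysis was possible because the table has no value for a single library. For the same reason the fit with the replicate block and leaving out each replicate in turn were not run, so whether 1 library decides a call is unknown. The count of 8 called members was 5 with a Bonferroni adjustment, which kept Cacna1a, Cacna1g, Cacng7, Clcn6 and Kcnn4, and 5 with a required change of 0.5 or more on the log2 scale, which kept Cacna1a, Cacna1g, Cacng7, P2rx7 and Scn3a. Both are stricter by construction. Under the other 6 alternatives it lay between 6 and 8, and every gene called was among the 8. Of these 6, leaving out the 4 members that encode no subunit, and those sharing at least 25% of their transcript, were chosen after the data were seen. Neither could change the count, because no member left out was called. An adjusted p under 0.01 could only keep some of the 8. The limit to a mean of at least 100 removed Cacna1g and P2rx7 before any test, because their means are lower. Centring subtracted only 0.013, the median log2 fold change of genes with a mean of at least 100. The count of 28 members with a mean of at least 100 ranged from 23 to 36 with other limits. The median log2 fold change of all 67 members, -0.05, ranged from -0.08 to -0.07. Of the 34 named members, the 29 with an adjusted p each stayed called or uncalled under an adjustment over every gene with a p and under centring. The uncalled Trpm7 changed sign under centring, from 0.005 to -0.008. Named members with no adjusted p had no call to keep, and none was called under the adjustment over every gene. Over all genes, centring moved the positive share of calls from 44.9% to 40.3%.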

Other observations

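Other families of channels and channel-like proteins, picked by symbol after the data were seen, added 39 genes in the authors' deposited table. Of these, 31 had an adjusted p, and 4 were called positive and 2 negative, a share of 19.4% that was near the 20.2% of all genes tested. Gja1, the widely expressed gap junction protein connexin 43, was called at 0.31 (SE 0.083, adjusted p 0.00234) per the authors' deposited table, with a mean of 1957. The water channel Aqp1 was called at -0.56 (SE 0.079, adjusted p 6.24e-11), with a mean of 3173 per the authors' deposited table. Both tweety family genes present, Ttyh3 at 0.35 (adjusted p 0.000357) and Ttyh2 at 0.18 (adjusted p 0.0383), were called per the authors' deposited table.

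Among 15 genes of the Kctd family, which share a domain with voltage-gated potassium channels and mostly act as adaptors of ubiquitin ligases or receptors, Kctd13 was called at 0.47 (adjusted p 0.00285) and Kctd10 at -0.26 (adjusted p 0.000189) per the authors' deposited table. No anoctamin was called, although Ano3, with a mean of 4.67, had an unadjusted p of 0.0226: the 3 abundant ones, Ano6, Ano8 and Ano10, had means from 2773 to 5635 and fold changes from -0.05 to 0.12 per the authors' deposited table. The abundant Clic1 and Clic4 had fold changes of 0.04 and 0.00 per the authors' deposited table, with SEs of 0.055 and 0.070, and were not called either.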
